A study of Rattus norvegicus with 6 samples.

Results

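Translation initiation and elongation factors are the proteins that load ribosomes onto messenger RNA and move them along it. Their genes were taken as all probe sets on the array whose platform annotation gives 1 gene symbol starting with Eif or Eef, with 1 kinase gene left out. This gave 93 probe sets for 60 genes, 48 named Eif and 12 named Eef, of 14217 genes with a single symbol in all. The brightest probe set over the 6 arrays stood for each gene, and 47 of the 60 were bright enough to be tested, of 8594 genes tested. The members were not chosen by their difference between eyes.

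The study used 3 adult male Brown Norway rats in which the pressure of 1 eye was raised, a model of glaucoma, with the fellow eye as the control. Hypertonic saline injected into an episcleral vein kept the pressure up for 10 days. Retinal ganglion cells, the neurons that form the optic nerve, carried Fluorogold in both eyes after its injection into the superior colliculus. From each eye 2000 of these cells were laser-captured, and their RNA was amplified and hybridised to 1 Affymetrix array. The groups are the left eyes (OS, n = 3 arrays) and the right eyes (OD, n = 3 arrays) of the same 3 animals. The labels do not say which eye of a rat had the raised pressure, so every difference below is OS minus OD within a rat and carries no direction with respect to pressure. Fewer ganglion cells in a capture and less RNA per cell cannot be told apart in these samples.

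Initiation starts when eIF2 brings the initiator tRNA to the small ribosomal subunit, with eIF1, eIF1A and eIF3 bound there, while the cap-binding eIF4E, the scaffold eIF4G and the helicase eIF4A recruit the messenger RNA. eIF5B joins the subunits, eEF1A then delivers each aminoacyl-tRNA, and eEF2 moves the ribosome along. In neurons, phosphorylation of eIF2 by stress kinases and binding of eIF4E by the 4E-BP proteins are well-known brakes on protein synthesis.

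The stretches around the annotated starts of 6 eIF3 subunit genes and 2 eEF1 genes are shown because both families are known for sequence features there: a binding core of ETS transcription factors, CCGGAAG on either strand, in many housekeeping promoters, and a pyrimidine tract at the first bases of many translation factor messages. Each stretch runs from 40 bases before the start to 20 from it, in RefSeq's GRCr8 assembly. Capitals mark CCGGAAG or its reverse complement CTTCCGG, and any run of at least 8 bases of C or T that begins with C and lies within 20 bases before to 30 bases after the start. A run at the end of a stretch may go on past it. The 2 kinds of match can overlap, as they do in Eif3k and Eif3i, where capitals then cover both. The stretches lie for Eif3k at chr1:93397468-93397527 (- strand), for Eif3i at chr5:147226891-147226950 (- strand), for Eif3m at chr3:111897174-111897233 (- strand). Those of the other eIF3 genes lie for Eif3f at chr1:172369022-172369081 (+ strand), for Eif3d at chr7:111432721-111432780 (- strand), for Eif3j at chr3:129438675-129438734 (+ strand). Those of the eEF1 genes lie for Eef1b2 at chr9:72074051-72074110 (+ strand) and for Eef1a1 at chr8:88225050-88225109 (- strand).
Eif3k: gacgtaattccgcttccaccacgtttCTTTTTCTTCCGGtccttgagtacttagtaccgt
Eif3i: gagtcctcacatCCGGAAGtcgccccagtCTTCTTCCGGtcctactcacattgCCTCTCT
Eif3m: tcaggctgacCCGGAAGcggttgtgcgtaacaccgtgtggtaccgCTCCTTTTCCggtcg
Eif3f: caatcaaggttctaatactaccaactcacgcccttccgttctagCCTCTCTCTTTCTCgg
Eif3d: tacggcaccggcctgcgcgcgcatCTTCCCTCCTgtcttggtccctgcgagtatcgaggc
Eif3j: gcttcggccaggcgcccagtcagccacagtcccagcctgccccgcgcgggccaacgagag
Eef1b2: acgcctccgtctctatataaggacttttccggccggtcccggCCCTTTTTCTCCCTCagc
Eef1a1: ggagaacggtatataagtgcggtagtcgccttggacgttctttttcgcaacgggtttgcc

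Promoter sequences of 55 of the 60 genes were matched by gene identifier, each of 250 bases before to 50 bases after the start. CCGGAAG on either strand was present in 19 of the 55 (34.5%), against 17.0% of the promoters of 7110 tested genes and 9.22% of all 27457. The pyrimidine run was present in 13 of 55 (23.6%), against 13.2% and 13.1%, and in 5 of 10 matched eIF3 genes. All 5 are among the stretches shown, so the stretches do not represent the family. Eef1b2, which encodes the exchange factor of eEF1A, had a run of 15 bases, and Eif3f had one of 14. Eif3j and Eef1a1 had no match of either kind, nor had Eif3b and Eef1a2, whose stretches are not shown. Eef1a1 has a run beginning with C across its annotated start that is shorter than the 8 bases required. The runs of Eif3k and Eif3d end before the annotated start. These matches are descriptions of the letters in a window set by the annotated start, and a missing match says nothing about a factor. Tested members with CCGGAAG had a median OS minus OD difference of 0.38 (log2, n = 15 genes), and those without it 0.11 (n = 27). For the pyrimidine run the medians were 0.17 (n = 10) and 0.19 (n = 32).

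Signal was read against a background limit, set on each array as the 95th percentile of the 27 bacterial control probe sets. In rats 1 to 3 it was 399.6, 547 and 409 on OS arrays and 261, 591 and 293 on OD arrays. The share of probe sets above it was 47.6%, 34.9% and 45.5% in OS and 58.1%, 34.8% and 52.1% in OD. Being above the limit was thus easier on some arrays, and counts of such arrays do not compare signal between eyes or rats. Medians of the arrays lay between 313 and 370. The label was checked on ganglion cell markers: 6 of the 9 tested markers exceeded the limit on all 6 arrays. All 9 had a lower mean in OS (median log2 difference -0.78). The summed signal of these 9 ran from 8803 to 9599 in OS and from 19648 to 25356 in OD, with no overlap. Isl1, on the array but too dim to test, had 66.2, 387.5 and 728.6 in OS against 419.6, 39.2 and 52.8 in OD. Of markers of other cells, 3 of 4 amacrine, 2 of 4 photoreceptor, 3 of 6 glial, 0 of 3 microglial and 0 of 5 pigment epithelium genes exceeded the limit on all arrays. The summed signal of the 4 tested amacrine markers was 9451 to 15619 in OS and 22481 to 61705 in OD. That of the 5 pigment epithelium markers was 2178 to 4010 in OS and 5922 to 18619 in OD. Within these lists the amacrine Slc6a9 (0.72) and the pigment epithelium Tyr (0.56) had a higher mean in OS. The sums of the other lists overlapped between eyes. Photoreceptor markers had 7098 to 17092 in OS and 7624 to 28567 in OD, and glial ones 6700 to 16388 and 5870 to 18501. Microglial markers had 1748 to 9735 in OS and 1158 to 3551 in OD. No marker on the array was at 0, or below the limit on all 6 arrays. The beta-actin control's log2 ratio of 3' over 5' signal, a measure of RNA quality, was greater in OS in 3 of 3 rats, by 1.32 ± 0.52 (SD, n = 3). The Gapdh control gave -0.46 ± 1.86 for the same ratio, with rats 1 and 2 greater in OS and rat 3 at -2.58, so the controls differed in sign. The part of these differences in the values below was not tested.

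No translation factor gene differed between the eyes beyond the threshold. By limma, with rats as blocks and Benjamini-Hochberg adjustment over all 15521 tested probe sets, 0 of 47 members had an adjusted p under 0.05, where 0.0129% of all probe sets and 0.0116% of genes did. The smallest adjusted p of a member was 0.590. At an unadjusted p under 0.05 there were 4 members (8.51%), against 6.94% of all tested genes. Of these, 2 were lower in OS, against a background of 5.20%, and 2 higher, against a background of 1.73%. The means of 18 members were lower and of 29 higher in OS, so 38.3% were lower, where 53.7% of all genes were. The median difference was 0.22 on the log2 scale, against -0.07 over all 8594 genes. It was 0.07 without rat 3, 0.14 without rat 2, 0.10 after quantile normalization, 0.13 with an offset of 1 and 0.09 for genes from the 75th percentile of brightness up. Within rats 1, 2 and 3 the medians were -0.14, -0.16 and 0.25, so the list had no common direction over the animals.

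Agreement between rats was close to that of all tested genes. Of the 47 members, 6 were lower in OS in all 3 rats (12.8%, background 15.6%), 7 were higher (14.9%, background 13.1%), and 34 were mixed. OS and OD arrays did not overlap for 2 members lower in OS (4.26%, background 5.70%) and for 4 higher in OS (8.51%, background 4.79%). The 2 were Eif4e3 and Eif5a2, and the 4 were Eif3k, Eif4ebp1, Eif4enif1 and Eif2b4. Across the 47 members the within-rat differences had a Pearson r of 0.065 between rats 1 and 2. Rats 1 and 3 gave 0.12, and rats 2 and 3 gave -0.015. Over all tested genes the values, in the same order, were 0.052, 0.091 and 0.012. Each r is across genes of the same 4 arrays, which are not independent replicates. The SD of the 3 within-rat differences had a median of 1.32 among members and 1.10 among all tested genes.

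**Figure D1:**
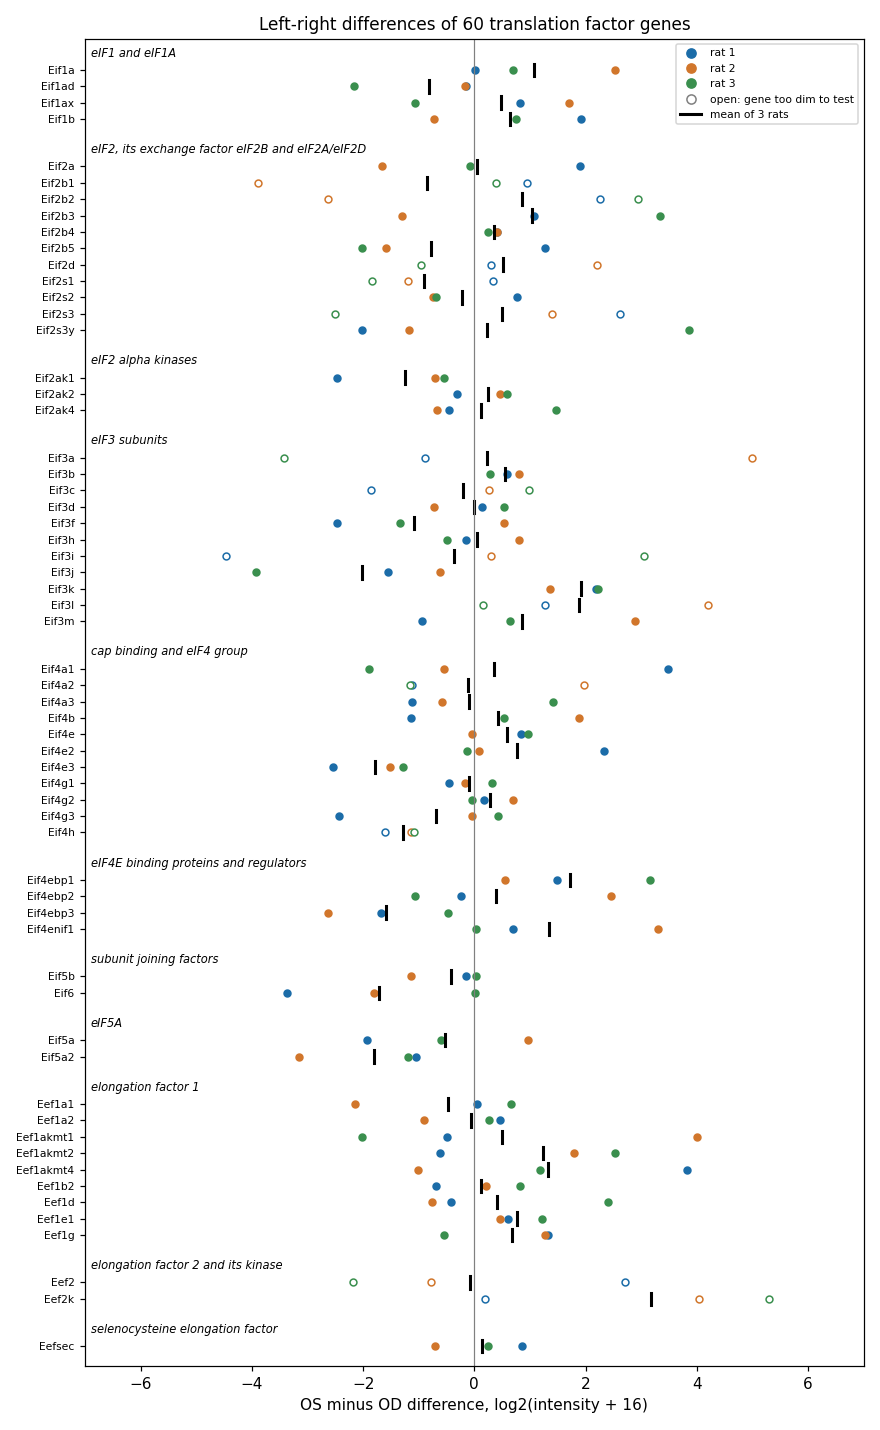
OS minus OD difference in log2(intensity + 16) of each of the 60 genes, grouped by role, with 1 point per rat and a black bar at the mean of 3 rats; open points are the 13 genes too dim to test. In 34 of the 47 tested genes the points lie on both sides of 0, and the means run from -2.03 for Eif3j to 1.92 for Eif3k.

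A difference of at least 1 on the log2 scale in the same direction in 3 of 3 rats was seen in 5 members lower in OS (10.6%, background 8.60%) and 4 higher in OS (8.51%, background 6.57%). All 9 missed the threshold, and their adjusted p-values from the limma fit ran from 0.590 to 0.852. For 6 of them the difference shrank by over 1.5 times without 1 rat: to 0.35 for Eif1a, 0.36 for Eif4enif1 and -1.12 for Eif5a2 without rat 2, to -1.08 for Eif3j and 1.01 for Eif4ebp1 without rat 3, and to -0.63 for Eif2ak1 without rat 1. All 9 are described here by role with the other genes of each group. Other members, outside the rule for named genes, are named with their values already seen.

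The 4 tested members of the eIF1 and eIF1A group, which help the small subunit scan for the start codon, had differences from -0.82 to 1.08. Eif1a gave 594, 297 and 691 intensity units in the OS arrays of rats 1 to 3, against 589, 38.3 and 421 in OD. Its difference was 1.08 ± 1.30 (SD, n = 3 rats). The eyes overlapped, and rat 2 was at 2.53, against 0.012 in rat 1. Eif1ad, named for its eIF1A-like domain, was lower in OS in 3 of 3 rats at -0.82 ± 1.15, with 929, 969 and 165 in OS against 1036, 1084 and 793 in OD. Its eyes overlapped. Eif1ax was at 0.48 ± 1.41 and Eif1b at 0.65 ± 1.33, each with 1 rat lower in OS.

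The eIF2 group holds eIF2 itself and eIF2B, which recharges it with GTP. Eif2a and Eif2d, for eIF2A and eIF2D, are counted in the group as factors apart from eIF2 and eIF2B. Of the group's 11 genes on the array, 6 were tested. The alpha subunit gene Eif2s1, whose product is the target of the stress kinases, was too dim to test. It reached the limit on 1 OD array, with 221, 32.4 and 75 in OS against 172, 95.3 and 310.2 in OD. The beta subunit gene Eif2s2 was above the limit on all 6 arrays, at 1205, 928 and 1132 in OS against 705, 1565 and 1829 in OD. Its difference of -0.22 ± 0.85 was smaller than its spread over rats. The eIF2B delta gene Eif2b4 had the narrowest range of the members above the limit on all arrays: 942, 1069 and 1056 in OS against 709, 806 and 891 in OD. Its 3 OS arrays lay above its 3 OD arrays, by 0.35 ± 0.09 (limma adjusted p = 0.922, 95% interval -0.88 to 1.57). Eif2b3, the eIF2B gamma gene, had 1522, 234 and 2502 in OS against 718, 599 and 234 in OD, a difference of 1.03 ± 2.32 with rat 2 opposite to the others. Eif2a, Eif2b5 and the Y-linked Eif2s3y ran from -0.78 to 0.22, with both directions among the rats of each. Eif2b1, Eif2b2, Eif2d and Eif2s3 were too dim to test.

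Of the eIF2 kinases, the heme-regulated Eif2ak1 was lower in OS in 3 of 3 rats, at 142, 578 and 1078 in OS against 866, 953 and 1591 in OD. The difference was -1.25 ± 1.07 (limma adjusted p = 0.753). Its other probe set gave the opposite sign in every rat, with a mean of 0.56 ± 0.32, with 343, 1099 and 1437 in OS against 299, 657 and 838 in OD. The 2 probe sets of this gene thus went opposite ways. Eif2ak2, the kinase activated by double-stranded RNA, was at 0.25 ± 0.49, and Eif2ak4, which senses uncharged tRNA, at 0.11 ± 1.17.

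eIF3 is the large scaffold of the initiation complex, and 7 of its 11 subunit genes on the array were tested. Their mean differences spread from -2.03 to 1.92 with an SD of 1.29 over genes, against 0.90 over all tested genes. Eif3k had 1261, 1148 and 1034 in OS, against 265, 438 and 208 in OD, so every OS array lay above every OD array. The difference was 1.92 ± 0.49, or 3.79-fold (limma adjusted p = 0.590, unadjusted 0.0148, 95% interval 0.42 to 3.43). Only 1 of the 3 OD arrays was above the background limit, so the size is uncertain. Its other probe set gave 457, 580 and 178 in OS against 160, 214 and 693 in OD, with rat 3 the other way.

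Eif3j, the loosely bound subunit that helps recruit the complex, was lower in OS in 3 of 3 rats, at 155, 595 and 94.1 in OS against 483, 916 and 1656 in OD. The difference of -2.03 ± 1.71 had an unadjusted p of 0.0325 in the limma fit (adjusted p = 0.672), the OS array of rat 2 lay above the OD array of rat 1, and 1 OS array exceeded the limit. The second probe set of Eif3j, too dim to test, was at 0.12. Eif3f had 786, 778 and 2642 in OS against 4429, 533 and 6689 in OD. Its difference was -1.09 ± 1.52, with rat 2 opposite to rats 1 and 3. Eif3h was above the limit on all arrays, at 3035, 3354 and 1725 in OS against 3377, 1928 and 2425 in OD (0.05 ± 0.66). Eif3d (-0.02 ± 0.64) and Eif3b (0.56 ± 0.26, higher in OS in 3 of 3 rats) also had small mean differences, and Eif3m was at 0.86 ± 1.92. Eif3a, Eif3c and Eif3i were too dim to test. Eif3l was too dim to test, with 797, 739 and 126 in OS against 321, 24.8 and 111 in OD. That is 1.88 ± 2.09, while its other probe set was at -2.52.

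**Figure D2:**
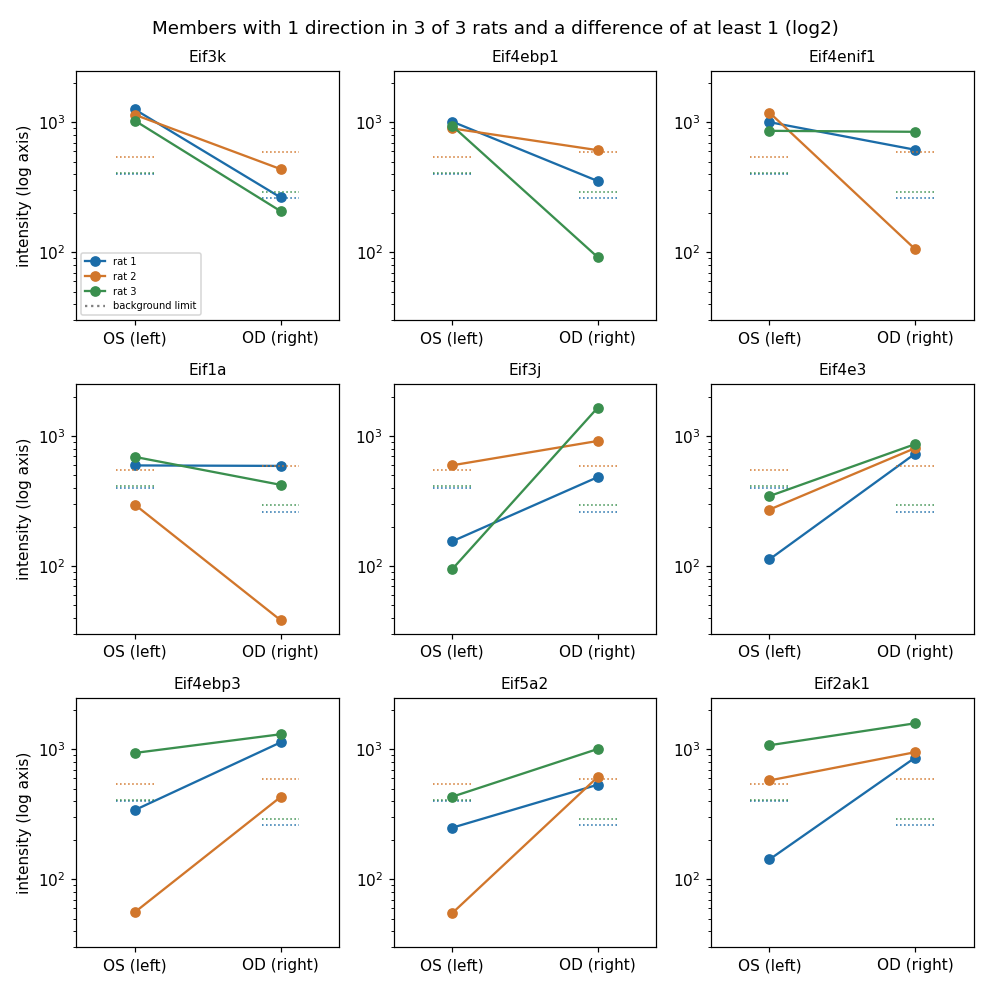
Intensity (log axis) on each array for the 9 tested genes with the same direction in 3 of 3 rats and a difference of at least 1; lines join the OS and OD arrays of a rat and dotted marks are the background limit of each array. The 3 OS arrays of Eif3k lie at 1034 to 1261 above its 3 OD arrays at 208 to 438, and the OS arrays of Eif4e3 all lie below their limits.

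In the eIF4 group, the cap-binding Eif4e was above the limit throughout, at 1750, 2458 and 2354 in OS against 969, 2535 and 1195 in OD. The difference was 0.59 ± 0.55 (adjusted p = 0.828), with rat 2 at -0.04. Its other probe sets were at -0.80 and 1.75. Eif4e3, a cap-binding relative of eIF4E, had 112, 271 and 345 in OS, below the limit on each array, against 732, 807 and 866 in OD, above it on each. On this probe set the measured OD mean was at least 1.76-fold higher, from its log2 values against the limits of the OS arrays. That bound makes no allowance for the spread over rats. The measured difference was -1.78 ± 0.67 (adjusted p = 0.721), and the second, dimmer probe set was at -0.18. The scaffold genes Eif4g1 (-0.10 ± 0.39) and Eif4g2 (0.28 ± 0.38) were above the limit on all 6 arrays and close between eyes. Eif4g3 (-0.68 ± 1.53), Eif4a3 (-0.10 ± 1.33), Eif4b (0.43 ± 1.52) and Eif4e2 (0.76 ± 1.37) had rats on both sides of 0.

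The helicase genes were less well measured. Eif4a1 gave 954, 793 and 120 in OS against 71.0, 1162 and 490.1 in OD (0.35 ± 2.80), with rat 1 opposite to the others. Eif4a2, the form prominent in brain, was too dim to test, at 409, 478 and 33.9 in OS against 912, 110.4 and 95.3 in OD. Eif4h, which assists the helicase, was also too dim, and lower in OS in 3 of 3 rats by -1.28 ± 0.29. It exceeded the limit on 1 OD array, at 35.3, 33.0 and 268 in OS against 140.4, 91.4 and 587 in OD.

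The 4 regulators of eIF4E did not share a direction. Eif4ebp1, which blocks eIF4E when dephosphorylated, had 1017, 901 and 945 in OS against 354, 612 and 91.7 in OD. All OS arrays lay above all OD arrays, by 1.73 ± 1.32 or 3.31-fold (limma adjusted p = 0.705, unadjusted 0.0420). The OD array of rat 3 was below its background limit, and the difference was 1.01 without that rat. Eif4ebp3, another 4E-BP gene, went the other way in 3 of 3 rats, at 342, 55.9 and 940.3 in OS against 1134, 431 and 1310 in OD (-1.60 ± 1.08, adjusted p = 0.732). Eif4ebp2, the main form in brain, had 647, 596 and 582 in OS against 771, 95.4 and 1233 in OD (0.38 ± 1.84). Eif4enif1, which carries eIF4E into the nucleus, had 1006, 1193 and 863 in OS against 617, 106 and 848 in OD (1.34 ± 1.74, adjusted p = 0.766). Most of its difference came from rat 2 at 3.31, against 0.69 and 0.02 in rats 1 and 3.

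Among subunit-joining factors, Eif5b was bright and close between eyes, at 1695, 704 and 2912 in OS against 1875, 1573 and 2847 in OD (-0.42 ± 0.63). Eif6, which keeps the large subunit apart until it is released, had 79.3, 264 and 1076 in OS against 973, 968 and 1061 in OD. Its difference of -1.72 ± 1.70 (limma adjusted p = 0.707, unadjusted 0.0434) came from rats 1 and 2, and rat 3 was at 0.02. eIF5A carries hypusine and eases peptide bond formation at stalling sequences. Eif5a had 431, 1883 and 1192 in OS against 1700, 959 and 1813 in OD (-0.53 ± 1.45). Eif5a2, its second gene, had 250, 54.9 and 433 in OS against 536, 616 and 1010 in OD, with no overlap (-1.80 ± 1.17, adjusted p = 0.744). The second tested probe set of Eif5a2 had its 3 OS arrays above its 3 OD arrays, at 482, 399 and 707 in OS against 195, 64.1 and 246 in OD (1.69 ± 0.60), so the gene has no settled direction.

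Of the 10 tested elongation factor genes, 8 had a higher and 2 a lower mean in OS, with a median of 0.45. Only Eef1e1 kept its direction in 3 of 3 rats. Eef1a1, the general form of eEF1A, had 1689, 409 and 3094 in OS against 1624, 1875 and 1952 in OD. The OS array of rat 2 alone was below its limit, and the difference was -0.48 ± 1.48. It was 0.36 without rat 2. Eef1a2, the form of neurons and muscle, was above the limit on all arrays, at 832, 675 and 699.5 in OS against 599, 1279 and 577 in OD. The difference of -0.06 ± 0.74 had a 95% interval of -1.41 to 1.30, and it was 0.37 without rat 2. Eef1e1, a scaffold protein of the tRNA synthetase complex, had 827, 1278 and 1344 in OS against 536, 919.9 and 572 in OD (0.76 ± 0.39, adjusted p = 0.821). Eef1g, a structural subunit of the exchange complex, was at 0.68 ± 1.06, and its other probe set at -0.70. Eef1b2 and Eef1d, both exchange factor subunits, were at 0.11 ± 0.76 and 0.41 ± 1.74. The 3 lysine methyltransferase genes Eef1akmt1, Eef1akmt2 and Eef1akmt4, which modify eEF1A and are factors by symbol only, were at 0.50 ± 3.13, 1.24 ± 1.65 and 1.33 ± 2.43.

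eEF2 and its kinase were dim. Eef2 had 484, 284 and 112 in OS against 60.2, 499.8 and 565 in OD, above the limit on 1 array of each eye. Eef2k, which inactivates eEF2 by phosphorylation, had 200.3, 1156 and 1465 in OS against 172, 55.1 and 21.4 in OD. No OD array reached its limit, and of the OS arrays those of rats 2 and 3 did while that of rat 1 lay below it. The measured difference was 3.18 ± 2.66, or 2.12 without rat 3, and not tested in the main fit because the gene was too dim. With no filter on brightness its limma adjusted p was 0.676. Of its 4 probe sets, 2 were lower and 2 higher in OS. Eefsec, which delivers selenocysteine, was at 0.13 ± 0.79.

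The members measured above background throughout had small mean differences. Above the background limit on all 6 arrays were 11 of the 47 (23.4%, background 26.0%): Eif3h, Eif4e, Eif5b, Eif4g1, Eif4g2, Eif3d, Eif5a, Eif2s2, Eif2b4, Eef1e1 and Eef1a2. Their mean differences ran from -0.53 to 0.76, with an SD over genes of 0.40 against 0.57 for the 2232 genes that met the same condition. The 95% intervals of the limma fit reached from -1.75, for Eif5a, to 2.02, for Eef1e1. Each interval included 0, and differences as large as its ends were not excluded. Among these 11 the highest array was between 1.51 and 4.37 times the lowest.

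**Figure D3:**
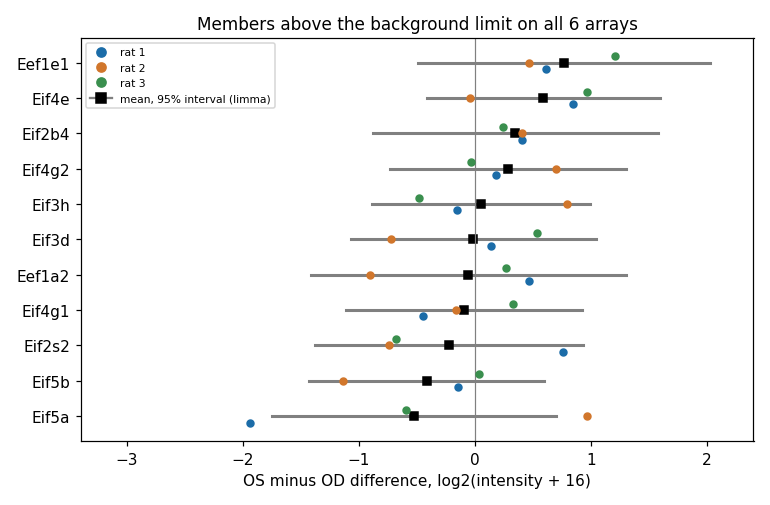
OS minus OD difference in log2(intensity + 16) of the 11 genes above the background limit on all 6 arrays; coloured points are rats, squares are means and grey lines are 95% intervals from limma. Every interval includes 0, and the means run from -0.53 to 0.76.

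Probe sets of a gene often disagreed. Of the 24 genes with more than 1 probe set, 8 had all their mean differences on the same side of 0 and 16 had them on both. Of the 10 with more than 1 tested probe set, 3 had 1 direction over those. Eif4b, which stimulates the helicase, was at 0.43 by its brightest probe set and -2.43 by the other. Eef1a1 was lower in OS by both, at -0.48 and -0.04.

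**Figure D4:**
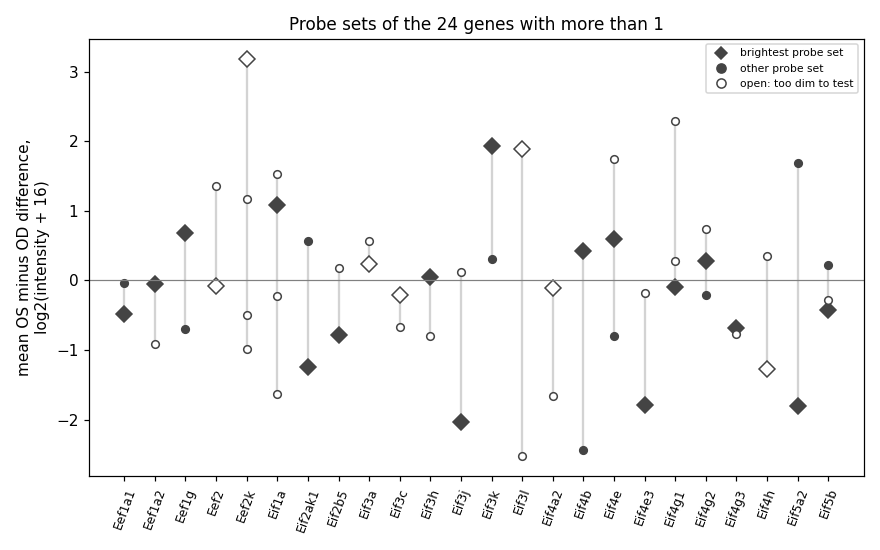
Mean OS minus OD difference in log2(intensity + 16) of each probe set of the 24 genes with more than 1; diamonds are the brightest probe set of a gene, circles the others, and open symbols were too dim to test. In 16 genes the symbols lie on both sides of 0, among them Eif5a2 at -1.80 and 1.69.

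Animals differed in these genes too, given here as a description since each has 2 arrays. In rat 3 both arrays lay above the other 4 for 7 members (14.9%, background 12.5%), among them Eef1a1, Eif3d, Eif3b and Eif5b, and below them for 4 (8.51%, background 8.69%), among them Eef1g and Eif4g2. In rat 2 both arrays lay below the other 4 for 7 members (14.9%, background 8.61%), with Eef1b2 at 55.4 in OS and 46.0 in OD, against 513 to 1254 and 699 to 836 in the other rats. For 1 member, Eif4e, they lay above (2.13%, background 7.56%). In rat 1 both arrays lay outside the other 4 for 1 member, Eif2ak4, which was below (2.13%, background 10.2%).

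Other genes of translation were counted from lists of release, poly(A) binding, hypusine, mTOR, eIF2 stress, mitochondrial and tRNA synthetase genes. None of the 38 tested passed the threshold by limma, and 2 had an unadjusted p under 0.05, where 6.94% of all tested genes did. These were Rps6kb1, a kinase of ribosomal protein S6, at -2.04 ± 2.48 (adjusted p = 0.662, rat 2 opposite), and the synthetase gene Eprs1 at 1.61 ± 1.16 (adjusted p = 0.697, higher in OS in 3 of 3 rats). The median over 15 tested synthetase genes was -0.20, over 9 mTOR and MNK genes -0.15, and over 3 mitochondrial factors 1.08. In the eIF2 stress list, with a median of 0.44 over 5 genes, Atf4, the factor translated when eIF2 is phosphorylated, was close between eyes at 803, 1037 and 1338 in OS against 844, 1437 and 1374 in OD (-0.19 ± 0.24). Ddit3, a target of that response, had 831, 590 and 87.5 in OS against 1189, 987 and 883 in OD, with no overlap (-1.45 ± 1.45, limma adjusted p = 0.735). Other genes of this list went the other way. Gcn1 was higher with no overlap, at 1237, 797 and 775.5 in OS against 616, 545 and 620 in OD (0.61 ± 0.34). Trib3 was higher in OS in 3 of 3 rats (0.44 ± 0.38), and Impact was at 1.16 ± 3.33 with rats on both sides of 0. Paip2b, which restrains poly(A) binding protein, was like Ddit3 lower on every OS array, at -0.78 ± 0.25 (limma adjusted p = 0.813). Its list had a median of 0.06 over 4 genes. Of all tested genes, 5.70% were lower and 4.79% higher in OS with no overlap. The remaining named genes were Dohh, a hypusine enzyme, at -0.90 ± 0.57, Mtrf1l, a mitochondrial release factor, at 1.48 ± 1.86, and Abce1, a ribosome recycling factor, at -0.36 ± 1.60, which was 0.55 without rat 2.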

How the data were processed

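RNA of captured retinal ganglion cells was measured on 1-colour Affymetrix arrays, 1 per eye; the submitters' processing notes name GCOS, without version or settings. Each deposited value is the linear intensity of 1 probe set. The 2% trimmed mean was 500.1 on each array, so a global scaling by the authors was assumed and no further normalization was applied. Of 31099 probe sets, 57 controls were left out of the tests. Of the others, 20826 had 1 symbol, 436 several and 9780 none. The identifiers of all 60 member genes were found in RefSeq's GRCr8 table, with 0 symbols changed. A further 5 probe sets with several symbols were not used, and 1 kinase gene is not reported here.

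An offset of 16 was added before log2, which understates differences of dim genes. The brighter part of the probe sets, from the median mean log2 value up (15521), was tested with limma 3.58.1 in R 4.3.3 (two-sided, with an intensity trend and rat as a fixed block). Adjustment was by Benjamini-Hochberg over all of them, with a threshold of 0.05. Residual degrees of freedom were 2 and prior ones 19.4, so the variance came mostly from pooling over probe sets. The script was tested on simulated data. SDs are of the 3 within-rat differences. A fold against an eye below the background limit on its 3 arrays is a lower bound on the measured means, computed against the limits. It makes no allowance for the spread over rats. The number of arrays limits the precision.

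Both eyes of a rat are paired because they come from the same animal, per the titles and the design text. Deviations from the group means correlated between eyes at 0.109, 0.122 and 0.326 in rats 1 to 3 (across probe sets). Between OS of rat 1 and OD of rat 2 they correlated at 0.104, about as high.

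Members and lists were chosen with earlier results of these data known. Named by rule were members with 1 direction in 3 rats and a difference of at least 1, at most 15; the brightest member of each role; 10 fixed genes; and of each other list the gene with the smallest p. Alternatives tried were offsets of 1 and 64, quantile normalization, other brightness filters, other treatments of the rat block, no trend, averaged probe sets and leaving out each rat.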

Additional observations from a re-analysis of the deposited data

How the results depend on the processing

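The count of translation factor genes past the threshold was 0 under each alternative run, and the smallest adjusted p of a member was 0.101, without rat 2; at an unadjusted p under 0.05 there were 1 to 7. The count of 2 among all probe sets was 0 after quantile normalization, with an offset of 1, from the 75th percentile of brightness up, with no replicate block, with a random replicate block and with no intensity trend. It was 9 with an offset of 64, 9 with no filter, and 18 to 59 with 1 rat left out (59 without rat 2). The members' median difference stayed between 0.07 and 0.22, within its spread over rats. The blocked and unblocked fits gave the same 0.22, which was fixed in advance because every rat gave both eyes. The median of all genes moved by less than 0.1 under each scaling. Of 386 recomputed values of the 33 genes named by rule, 371 kept their sign and 15, of 11 genes, did not. Other brightness filters, other treatments of the rat block and no trend cannot alter a gene's difference here. Their part of the 371 was thus fixed in advance and says nothing on stability. Of the 386 values, 0 had an adjusted p under 0.05. With 1 rat left out, the sign turned, in the lowest to highest values and at the rat given, for Eif2s2 (-0.71 to 0.038, without rat 2; also without rat 3), Eif3h (-0.32 to 0.32, without rat 2), Eif5a (-1.27 to 0.18, without rat 1), Eef1a1 (-1.05 to 0.36, without rat 2), Eefsec (-0.23 to 0.56, without rat 1), Eef1a2 (-0.32 to 0.37, without rat 2), Eif4a1 (-1.22 to 1.47, without rat 1), Eif4ebp2 (-0.66 to 1.10, without rat 2), Abce1 (-0.93 to 0.55, without rat 2) and the untested Eef2 (-1.48 to 0.97, without rat 2 or rat 3) and Eif4a2 (-1.14 to 0.42, without rat 1 or rat 3). Averaging probe sets turned Eif3h to -0.37, and an offset of 64 moved Eif4h to -0.90. A kept sign can hide a loss of size. Averaging took Eif5a2 from -1.80 to -0.054, Eif2ak1 from -1.25 to -0.34, Eif3j from -2.03 to -0.95 and Eif4e3 from -1.78 to -0.98. These fell short of the difference of at least 1 used above, while Eif3k went from 1.92 to 1.12. With no replicate block the smallest adjusted p of a member was 0.953, and the count of members past the threshold stayed at 0. The cause was not tested. Signal over background limits these results, since 11 of the 47 tested members exceeded the limit on all 6 arrays.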
